A study of Mus musculus with 16 samples.

Results

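The serine/arginine-rich splicing factor (Srsf) genes and the heterogeneous nuclear ribonucleoprotein (Hnrnp) genes were examined in the adolescent mouse brain after nicotine, ethanol or both. Genes were included by symbol alone (Srsf followed by a number, or any symbol that starts with Hnrnp), which gave 31 of the 24062 genes in the count table, 11 Srsf and 20 Hnrnp genes. The set was put forward because Hnrnpa1 stood higher with ethanol in these same data. Differences between ethanol and water groups are therefore given as a description of these mice: for the 31 genes no p-value is printed there, and counts past a threshold stand beside the share of all genes and support nothing. Tests of the 31 genes are read only for nicotine and for the interaction. For Hnrnpa1 itself, NE against Water-Ethanol and the interaction draw on the ethanol values behind that choice. Its values there are a description as well.

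RNA-seq was performed on whole brains, cerebellum attached, of 16 female C57BL/6J mice, an inbred strain, at postnatal day 45. WW mice (n = 4) drank only water. NW mice (n = 4) had nicotine at 200 µg/ml as their drinking solution for 22 h per day, and Water-Ethanol mice (n = 4) had a tube of 20% v/v ethanol in short daily sessions in the dark, the last of which lasted 4 h and ended at dissection. NE mice (n = 4) had both substances. Ethanol was drunk voluntarily, so intake was not fixed. The paper reports that NE mice drank more ethanol in the last session than Water-Ethanol mice and had higher blood ethanol. RNA came from 4 mice per group picked at random, and the intake of these mice is not given. No nicotine was offered during that session, and the paper names nicotine withdrawal as a possible source of differences in NW mice. The whole brain averages over every region and cell type: fewer cells of a type and less RNA per cell cannot be told apart.

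SR proteins bind exonic enhancer sequences through RNA recognition motifs and recruit the spliceosome through their serine/arginine-rich tails, and they usually favour the inclusion of an exon. hnRNP proteins coat nascent transcripts and often act in the opposite direction, through silencer sequences, and many also take part in mRNA export, stability and transport into neurites. Genes of both families commonly control their own level through exons whose inclusion sends the transcript to nonsense-mediated decay, so that the amount of RNA and the choice of exons are linked for these genes.

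Counted reads per mouse ranged from 27100352 to 32880979. Summed normalized counts of 4 neuronal markers ran from 126284 to 149049 over the 16 mice, of 4 oligodendrocyte markers from 169557 to 219011 and of 4 astrocyte markers from 118293 to 140232, so that the defining markers of brain were present, while 3 of 4 blood genes (Hba-a1, Hbb-bs and Hbb-bt) were listed at 0 in every mouse. WW replicate 4 stood apart with a sum of 9678 over 5 cerebellar markers, where WW mice reached 26597, and NW replicate 3 had 12611. Water-Ethanol and NE mice lay between 22739 and 25688. WW replicate 3 had the highest sums for nasal epithelium (804 against at most 306 in the nicotine and ethanol groups) and for meninges and bone (5231 against at most 3044). For results that rest on WW, values without WW replicates 3 and 4 are given for some members and for counts past the threshold. Values of single members without NW replicate 3 are not given.

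All 31 genes were expressed, and none was lost to the filter on low counts. By FPKM, a read level corrected for transcript length and library size, which can be compared between genes, the median WW level was 36.9 for Srsf genes and 65.4 for Hnrnp genes. Hnrnpk, a poly(C)-binding protein, was the highest Hnrnp gene at 212 ± 2.83 FPKM in WW (SD, n = 4), and Hnrnpr, which binds neuronal transcripts, the lowest at 14.4 ± 0.68. Srsf5 was the highest Srsf gene at 115 ± 16.7 FPKM and Srsf12, a small family member that represses splice sites, the lowest at 6.76 ± 0.60. The Srsf genes varied more between mice of a group. The median SD within groups was 0.12 on the log2 scale for Srsf genes, 0.06 for Hnrnp genes and 0.10 for all genes tested.

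Hnrnpa1 encodes one of the most abundant hnRNP proteins, which binds UAGG-type silencers and promotes exon skipping. Its row in the count table spans chr15:103240397-103246698 (GRCm38, plus strand; 13 exon segments, 2190 bases), and each mouse had only 126 to 313 reads there. Scaled to library size and length, the counts gave 3.13 on the scale of FPKM, while the FPKM table gave 77.1 as the mean of the same 16 mice, so that the count-based level was 4.06% of the FPKM. Over 9847 genes above 5 FPKM the median was 92.8%, and only 0.995% of them lay lower than Hnrnpa1.

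Of the 2190 exon bases of Hnrnpa1, 1759 (80.3%) were also assigned, on the same strand, to the rows of Gm10052 or Gm5643, which carry pseudogene names but were placed on the exons of Hnrnpa1. Gm10052 had 0 reads in every mouse although its FPKM ran from 64.2 to 94.2, and Gm5643 had 0 to 6 reads. Hnrnpa3 was the only other member with shared exon bases, 27.9% with Gm6793, which also had 0 reads at an FPKM of 121 to 149, and its count-based level was 56.9% of its FPKM. Over the table, the 60 genes above 5 FPKM that shared at least 50% of their exon bases with another row had a median count-based level of 0% of their FPKM, against 92.9% for the 9632 genes that shared none. How the counting program treated reads on shared bases was not tested.

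The bases that remained to Hnrnpa1 alone summed to 431. The largest block, of 159 bases, lies in 2 of 5 annotated transcripts, 1 protein-coding and 1 a nonsense-mediated decay target. Blocks of 7, 76 and 154 bases lie only in transcripts annotated as nonsense-mediated decay targets, and 35 bases lie in no annotated transcript. None of the bases left to Hnrnpa1 alone is therefore common to all its transcripts. Scaled to these 431 bases, the counts gave 15.9 on the scale of FPKM, which was 20.6% of the FPKM. Which transcripts gave the counted reads was not tested. Of the windows of 150 bases, the length of a sequencing read, in the coding sequence of Hnrnpa1 in the GENCODE annotation, 68.35% occurred base for base in transcripts of other genes. Over its whole longest coding transcript the share was 37.6%.

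With ethanol, Hnrnpa1 was higher in the count table. Counts normalized for library size were 165, 139, 146 and 181 in the 4 WW mice. They were 192, 164, 196 and 146 in NW. Water-Ethanol mice had 283, 229, 299 and 235, each above every WW and NW mouse. NE mice had 285, 138, 260 and 173, so that replicates 1 and 3 stood with the Water-Ethanol mice, replicate 4 within the range of the water groups and replicate 2 just below the lowest of them. In order of group means, WW (158 ± 18.9) and NW (174 ± 23.7) overlapped, NW and NE (214 ± 69.8) overlapped, and NE and Water-Ethanol (262 ± 34.7) overlapped.

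The log2 fold change of Hnrnpa1 against WW was 0.74 ± 0.11 (SE) in Water-Ethanol and 0.46 ± 0.20 in NE, and NE against NW gave 0.31 ± 0.20. Without WW replicates 3 and 4 the Water-Ethanol difference was 0.79 ± 0.14. The NE differences depended on single mice: without NE replicate 1 and without NE replicate 2 they were 0.28 and 0.61 against WW, and 0.13 and 0.46 against NW. On the FPKM table the picture was different. WW mice had 76.1 ± 3.74 FPKM of Hnrnpa1 and Water-Ethanol mice 83.9 ± 5.01, while NW stood at 69.5 ± 3.48 and NE at 78.9 ± 7.18, and the log2(FPKM + 1) difference from WW was 0.14 ± 0.05 in Water-Ethanol and 0.05 in NE. On the same scale Hnrnpa1 was higher by 0.18 ± 0.07 in NE against NW and by 0.16 ± 0.04 for ethanol in all mice. Summed with Gm10052, the FPKM was 150 ± 6.96 for WW mice and 150 ± 12.5 for NW mice, against 155 ± 7.86 with ethanol alone and 154 ± 6.76 for NE mice. The Water-Ethanol and NE sums differed from WW by 0.05 and 0.04 on the log2 scale. No other member showed such a gap between the tables, since over the other 30 genes the log2 difference between Water-Ethanol and WW moved by at most 0.04 from one table to the other.

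**Figure D1:**
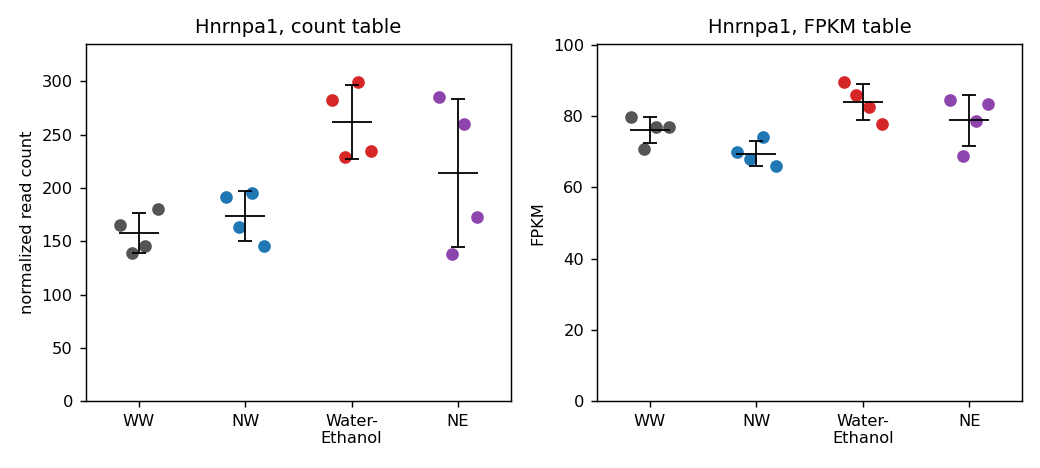
Hnrnpa1 in each mouse (points) with the group mean and SD (bars), as normalized read counts on the left and FPKM on the right. In counts the 4 Water-Ethanol mice, from 229 to 299, lie above all WW and NW mice, while in FPKM the groups lie close together, with means from 69.5 to 83.9.

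**Figure D2:**
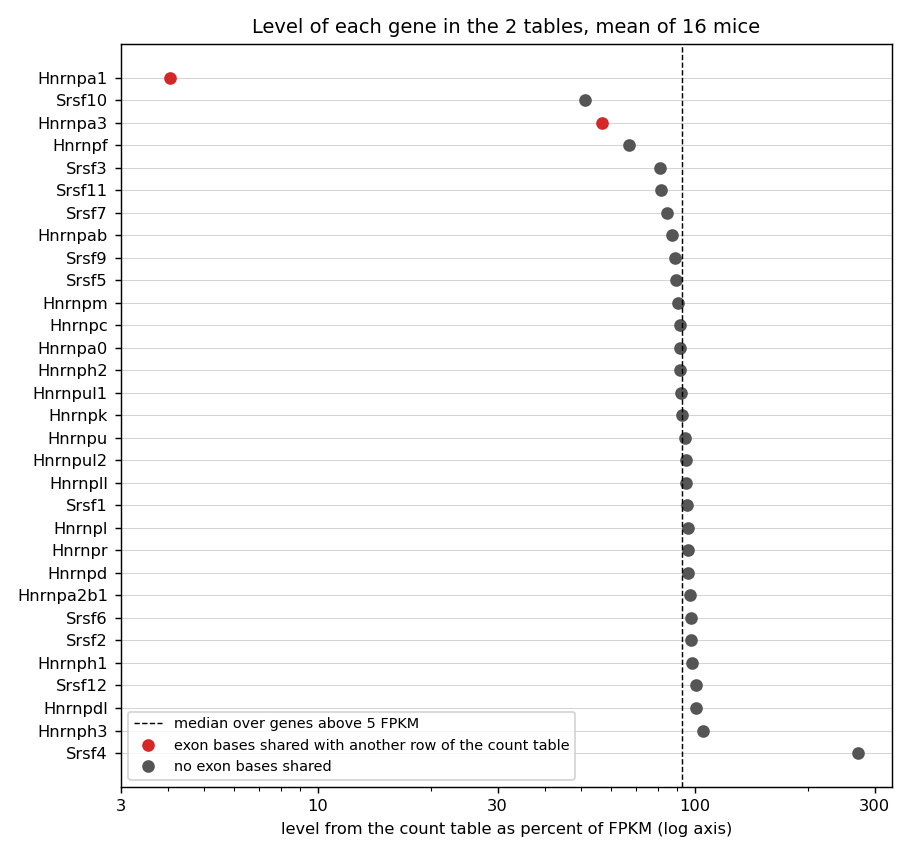
Level of each gene from the count table (reads scaled to length and library size) as a percentage of its FPKM, means of 16 mice on a log axis. Red points share exon bases with another row of the count table, and the dashed line is the median of genes above 5 FPKM (92.8%). Hnrnpa1 lies at 4.06% and Srsf4 at 271%.

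Of the 31 genes, 1 (Hnrnpa1, higher) passed an adjusted p of 0.05 in edgeR's quasi-likelihood test between Water-Ethanol and WW, where 0.457% of the 15323 genes tested passed, 0.274% of them higher. Between NE and WW 0 of 31 passed, against 0.313% of 15313 genes. In the comparison of all 8 ethanol mice with all 8 others, 2 passed (Hnrnpa1 and Hnrnph1, both higher), against 4.50% of 15592 genes, 2.94% higher. NE against NW gave 0 of 31 and 0 of 15361 genes, with 5 of 31 and 11.9% of all genes at an unadjusted p under 0.05. Because the set was chosen on the ethanol difference of Hnrnpa1, these counts restate that choice and are given only for reference. The median log2 fold change of the 31 genes for ethanol was 0.00, as for all genes tested (0.00), with 16 above 0 and 15 below, where 50.8% of all genes were above 0. The call of Hnrnpa1 between Water-Ethanol and WW held without WW replicate 1 and without WW replicate 4. Leaving out WW replicate 2 or 3, or any of Water-Ethanol replicates 1 to 4, ended its call at log2 fold changes of 0.66 to 0.79, and neither the FPKM table nor the fit of all 16 mice gave the call.

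After Hnrnpa1, the largest values in Water-Ethanol against WW were those of Hnrnph1 and Hnrnph3, of the H/F class whose proteins bind runs of guanines. Hnrnph1 (chr11:50377719-50386528, plus strand) had 7559, 7000, 6838 and 7491 normalized counts in WW and 7916, 7751, 8814 and 8158 in Water-Ethanol, with no overlap. In NW it had 6380, 6713, 7298 and 6942, and in NE 8581, 6808, 7898 and 7328, where replicates 2 and 4 lay among the water mice. Its log2 fold change was 0.18 ± 0.05 (SE) in Water-Ethanol against WW, 0.09 ± 0.06 in NE against WW and 0.16 ± 0.07 in NE against NW. Without NE replicate 1 the last 2 values were 0.024 and 0.099. Its call in the comparison of all ethanol mice (0.17 ± 0.04) was lost on leaving out any of WW replicates 2 or 3, Water-Ethanol replicates 3 or 4, NW replicates 1 or 2, or NE replicates 1 or 3, at 0.14 to 0.17.

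Hnrnph3 (chr10:63014664-63023849, minus strand), a shorter relative, had 1558, 1390, 1410 and 1480 in WW and 1618, 1600, 1688 and 1635 in Water-Ethanol, again without overlap. Its log2 fold changes were 0.17 ± 0.04 in Water-Ethanol against WW, 0.06 ± 0.07 in NE against WW and 0.10 ± 0.07 in NE against NW. The other H/F genes did not share this pattern. Hnrnph2 had a log2 fold change of -0.09 ± 0.03 and Hnrnpf of -0.04 ± 0.04 in Water-Ethanol against WW. In all, 6 of 31 genes did not overlap between Water-Ethanol and WW, 4 higher (Hnrnpa1, Hnrnph1, Hnrnph3 and Hnrnpa2b1) and 2 lower (Hnrnpr and Hnrnph2), where 10.8% of all genes tested did not overlap, 5.13% higher and 5.68% lower. All 6 were Hnrnp genes.

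Srsf7, an SR protein that shuttles to the cytoplasm and links splicing to export, was the member that stood lowest in NE. It lies at chr17:80200080-80207305 on the minus strand. WW mice had 3305, 3182, 3177 and 3642 normalized counts. NE mice had 2963, 2295, 2808 and 2602, all below the lowest WW mouse, while NW (2795, 3000, 3449 and 3006) and Water-Ethanol (2912, 3183, 2988 and 2967) mice overlapped both WW and NE. The log2 fold change was -0.32 ± 0.07 (SE) in NE, -0.14 ± 0.05 in Water-Ethanol and -0.12 ± 0.07 in NW, each against WW. It was -0.25 in NE without NE replicate 2, the lowest mouse.

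Hnrnpa0 (chr13:58125879-58128556, minus strand), a stress-responsive binder of AU-rich 3′ ends encoded by a single exon, had 4932, 4756, 4470 and 4344 in WW and 4283, 4134, 3943 and 4119 in NE. Its log2 fold change in NE against WW was -0.17 ± 0.05. Hnrnpd (chr5:99955935-99978938, minus strand), also called AUF1 and known to promote decay of AU-rich mRNAs, had 6398, 5930, 5842 and 5654 in WW and 5123, 5163, 5493 and 5578 in NE, a log2 fold change of -0.16 ± 0.05. Against NW (5584, 5879, 5687 and 5745), every NE mouse lay below every NW mouse for Hnrnpd, with a log2 fold change of -0.10 ± 0.04. Hnrnpul1, a regulator of transcription and of the DNA damage response, was the only other gene without overlap there, at -0.09 ± 0.04, so that 2 of 31 genes did not overlap, against 7.43% of all genes tested (4.41% higher and 3.03% lower). Between NE and WW 7 of 31 genes did not overlap and all 7 were lower (Srsf3, Srsf7, Hnrnpa0, Hnrnpc, Hnrnpd, Hnrnph2 and Hnrnpll), where 10.7% of all genes did not overlap: 5.51% had NE lower and 5.22% NE higher.

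**Figure D3:**
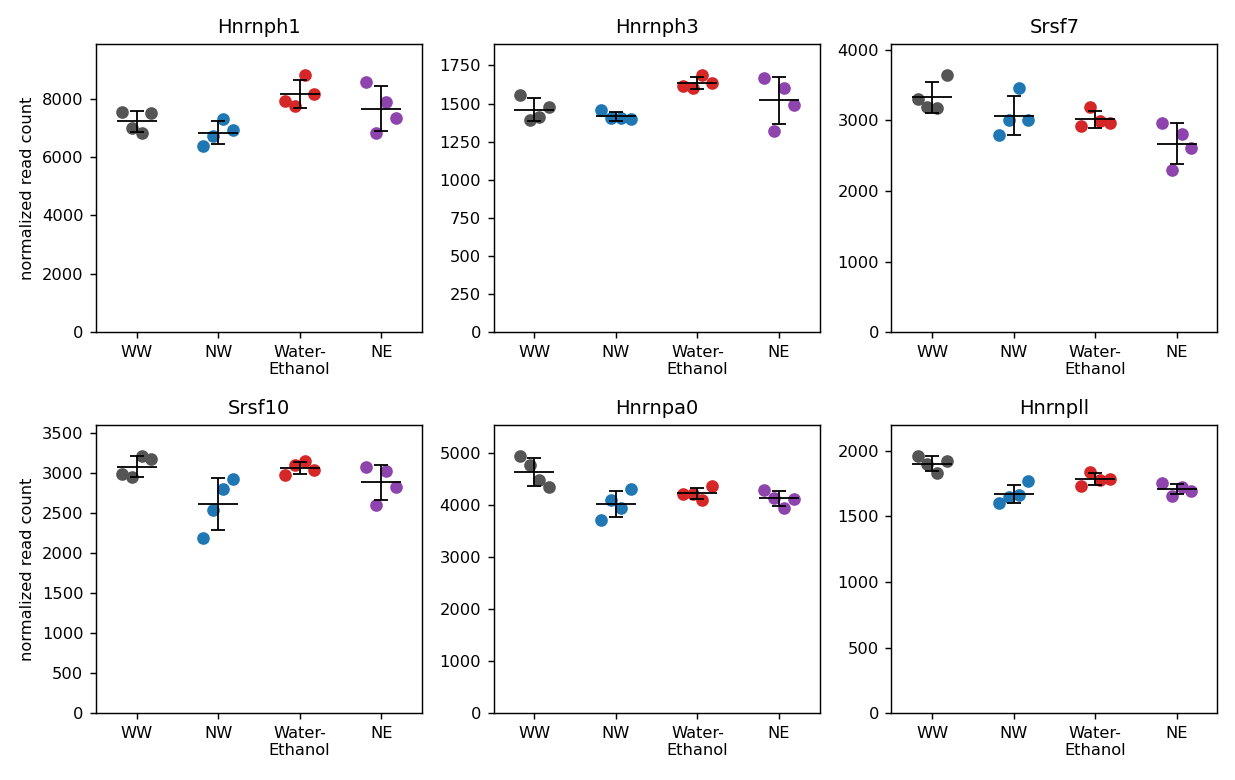
Normalized read counts of 6 genes in each mouse (points), with group mean and SD (bars), on axes that start at 0. Hnrnph1 and Hnrnph3 in Water-Ethanol mice lie above all WW mice, Srsf7 in NE mice lies below them, and Srsf10, Hnrnpa0 and Hnrnpll in NW mice lie below them.

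For nicotine alone, no member passed the threshold. Between NW and WW 0 of 31 genes passed an adjusted p of 0.05 in edgeR's quasi-likelihood test, as did 0 of the 15344 genes tested, and 10 of 31 members against 8.44% of all genes had an unadjusted p under 0.05. Of the 31 genes, 22 had a negative log2 fold change, 7 of 11 Srsf and 15 of 20 Hnrnp genes, where 46.4% of all genes did. The median was -0.12 for Srsf genes, -0.05 for Hnrnp genes and 0.01 for all genes tested. In 7 genes the groups did not overlap, where 5.96% of all genes tested did not (1.71% higher and 4.25% lower): Srsf1, Srsf3, Srsf10, Hnrnpa0, Hnrnph2 and Hnrnpll were lower and Hnrnpul1 was higher in NW.

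Srsf10 (chr4:135856071-135869899, plus strand), an SR-like repressor that is activated by dephosphorylation, had the largest of these differences. WW mice had 2983, 2944, 3208 and 3174 normalized counts and NW mice 2181, 2534, 2793 and 2924, and the log2 fold change was -0.24 ± 0.08 (SE; adjusted p = 0.397, edgeR). In Hnrnpa0 the 4 NW mice had 3706, 4088, 3938 and 4297 against the WW values above, a log2 fold change of -0.21 ± 0.06 (adjusted p = 0.303). Hnrnpll, a regulator of CD45 exon choice in lymphocytes that is also expressed in neurons, had 1958, 1896, 1829 and 1920 in WW and 1598, 1645, 1665 and 1767 in NW. Its log2 fold change was -0.19 ± 0.05 (adjusted p = 0.251), and it passed only when all 16 mice were fitted together (adjusted p = 0.0348, edgeR). Without WW replicates 3 and 4 the values in NW against WW were -0.18 ± 0.10 for Srsf10, -0.27 ± 0.07 for Hnrnpa0 and -0.21 ± 0.06 for Hnrnpll.

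Nicotine on top of ethanol was tested as NE against Water-Ethanol, where again no member passed. Because the paper reports a higher ethanol intake for the NE group, nicotine and ethanol intake cannot be told apart in this comparison. Between NE and Water-Ethanol 0 of 31 genes and 0 of 15319 genes passed, and 6 of 31 members and 5.80% of all genes had an unadjusted p under 0.05. Here 24 of 31 genes had a negative log2 fold change, against 50.5% of all genes, with a median of -0.12 for Srsf genes and -0.05 for Hnrnp genes. No member was free of overlap, against 3.52% of all genes (1.97% higher and 1.55% lower). Srsf7 had a log2 fold change of -0.18 ± 0.06 (adjusted p = 0.834, edgeR; exact permutation p = 0.0571). Hnrnpa1, given as a description because its Water-Ethanol values were behind the choice of the set, had -0.28 ± 0.18. This was -0.45 without NE replicate 1 and -0.12 without NE replicate 2. Srsf10 had -0.09 ± 0.05 and Hnrnpll -0.06 ± 0.04.

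In the comparison of all 8 nicotine mice with all 8 others, 28 of 31 genes had a negative log2 fold change, against 48.0% of the 15592 genes tested. The exceptions were Srsf4, Srsf9 and Hnrnpul1. No gene of any kind passed an adjusted p of 0.05 in edgeR's test, and 11 of 31 members against 10.3% of all genes had an unadjusted p under 0.05. The median was -0.13 for Srsf genes, -0.05 for Hnrnp genes and 0.00 for all genes. The largest values were those of Srsf2 (-0.17 ± 0.05, adjusted p = 0.283), Srsf1 (-0.17 ± 0.05, adjusted p = 0.250) and Srsf10 (-0.16 ± 0.05, adjusted p = 0.270), and the smallest adjusted p that of Hnrnpll (-0.12 ± 0.03, adjusted p = 0.170). Hnrnpll passed in this comparison with DESeq2 and with edgeR's likelihood-ratio test.

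Base composition moved with these values. The transcripts of the 31 genes had a median GC content of 45.0% against 50.2% for the genes tested, and 20 of the 31 were among the lowest of 4 equal bins of genes by GC (below 45.5%), with 3 in the highest. In NW against WW the median log2 fold change of all genes was -0.08 in the lowest bin and 0.06 in the highest, and in the comparison of all nicotine mice the medians were -0.05 and 0.04. After correction for GC content within each library, 21 of the 31 genes had a negative value for nicotine in all mice, with medians of -0.09 for Srsf genes and -0.02 for Hnrnp genes. The median of all genes in that corrected fit was 0.003. In NW against WW the median of the 31 genes went from -0.06 to -0.01, where all genes had -0.002 after correction. The Srsf median in NW against WW went from -0.12 to -0.03. Members with an unadjusted p under 0.05 (edgeR) went from 10 to 3 of 31 in NW against WW, against 4.53% of all genes after correction. For nicotine in all mice they went from 11 to 5 of 31, against 4.58% of all genes. The value of Srsf10 in NW against WW went from -0.24 to -0.15, while Hnrnpa0 had -0.26 and Hnrnpll -0.15 after correction. The corresponding medians by GC bin for Water-Ethanol against WW were -0.04 and 0.04, and for NE against WW -0.06 and 0.06. In NE against WW the correction took Hnrnpd from -0.16 to -0.100 and Srsf7 from -0.32 to -0.26.

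**Figure D4:**
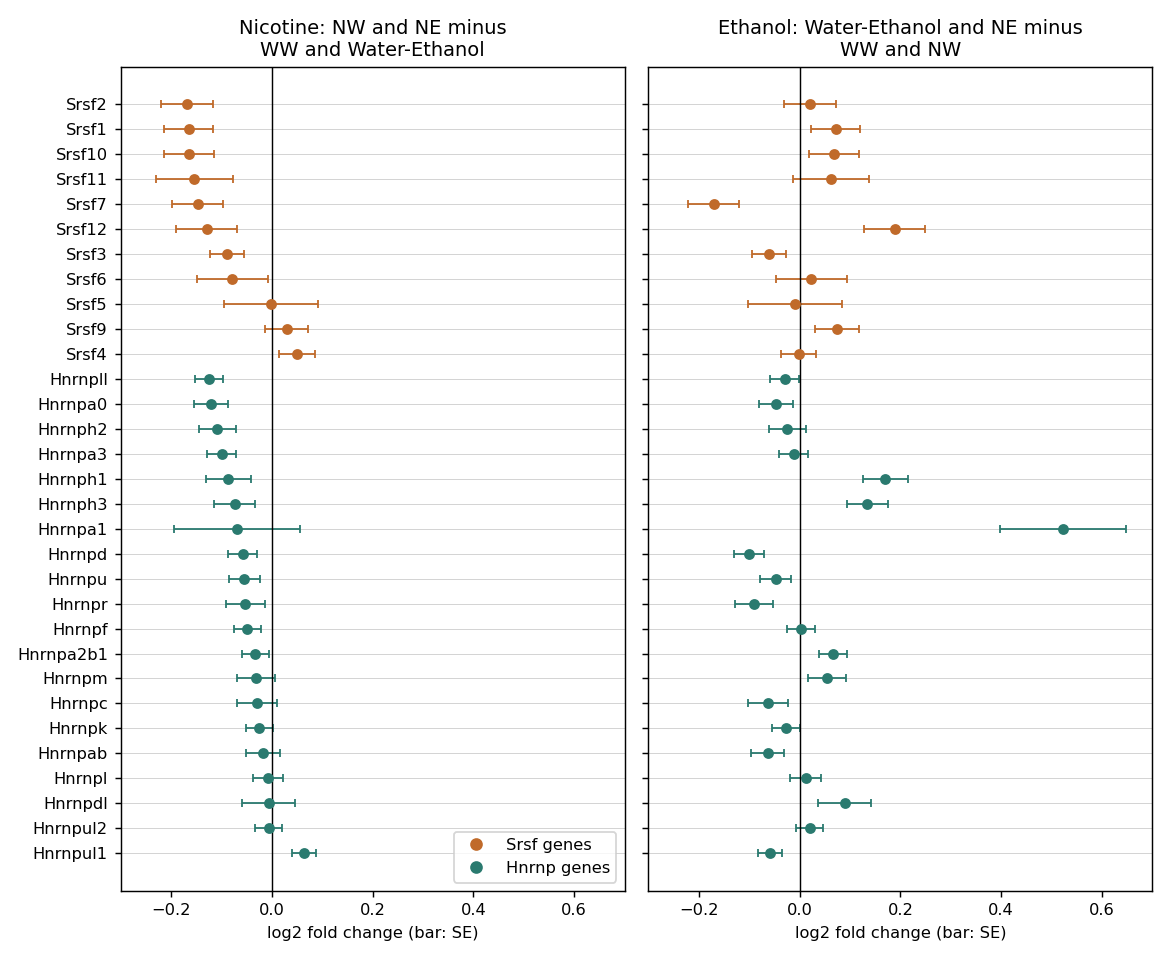
Log2 fold change (points) with SE (bars) of each gene for nicotine on the left and ethanol on the right, each from 8 against 8 mice. For nicotine 28 of 31 genes lie below 0, all by less than 0.2, and for ethanol 16 lie above 0, with Hnrnpa1 farthest out at 0.52.

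The interaction asks whether nicotine acted differently with and without ethanol. The higher ethanol intake that the paper reports for the NE group may enter it as well and cannot be told apart. No member and 0 of 15592 genes passed an adjusted p of 0.05 for the interaction in edgeR's test, and 2 of 31 members (Hnrnpa0 and Hnrnpll) against 6.75% of all genes had an unadjusted p under 0.05. The value for Hnrnpa1 was -0.42 ± 0.25 (SE), a description only, since its ethanol values were behind the choice of the set. For Hnrnpa0 it was 0.17 ± 0.07 (adjusted p = 0.689) and for Hnrnpll 0.13 ± 0.06 (adjusted p = 0.711).

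The spread between mice of a group was largest, after Hnrnpa1, in Srsf genes. Srsf5, a gene that responds quickly to stimuli in many tissues, had 5851, 4417, 4402 and 5347 normalized counts in WW, 5952, 5175, 6076 and 4457 in NW, 5321, 4536, 6291 and 5391 in Water-Ethanol and 6097, 3737, 5258 and 4769 in NE. Its SD within groups was 0.23 on the log2 scale and its group means spanned only 0.14. Srsf11 and Srsf6 followed with SDs of 0.18 and 0.17. NE replicate 2, chosen here after its values were seen, was the lowest of all 16 mice in 5 of 11 Srsf and 6 of 20 Hnrnp genes, and its Srsf genes had a median of -0.19 on the centred log2 scale where NE replicate 1 had 0.13. NW replicate 1 was the lowest in 2 Srsf and 8 Hnrnp genes. The share of all genes in which either mouse was lowest was not counted. Whether this was a trait of the whole library or of these genes was therefore not tested. NE replicate 2 also had the fewest counted reads (27100352). Without NE replicate 2, 24 of 31 genes had a negative value for nicotine in all mice, with a median of -0.04, where the median of all genes was 0.005.

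**Figure D5:**
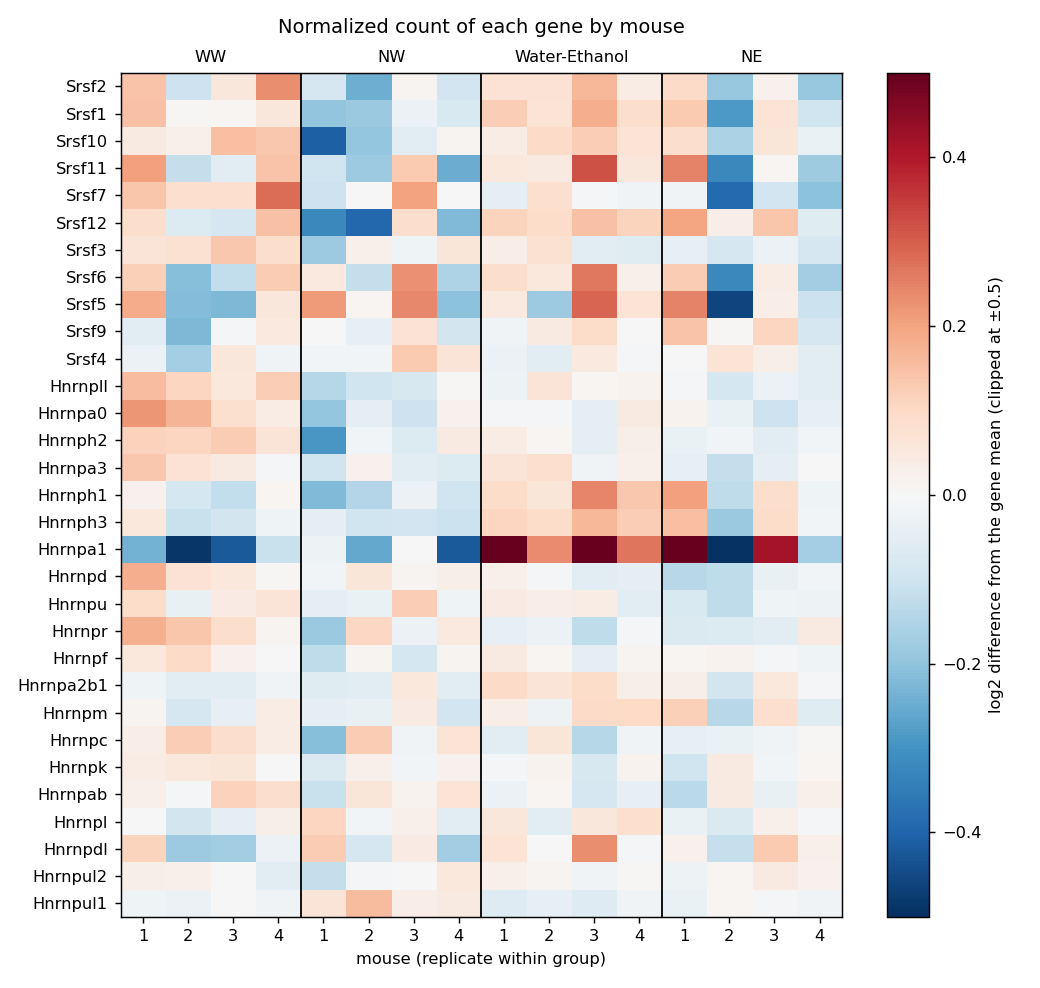
Normalized count of each gene (rows) in each mouse (columns, by group), as the log2 difference from the gene's mean, clipped at 0.5 in either direction. Hnrnpa1 shows the strongest colours, and Srsf2, Srsf5, Srsf6 and Srsf11 vary between mice within every group, with NE replicate 2 low.

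Genes that act with these factors were counted in the same way, and their counts stand against 0.457% of all genes past the threshold in Water-Ethanol against WW, 0.313% in NE against WW and 4.50% for ethanol in all mice. These lists were chosen with earlier results of these data known, so the calls within them are a description of these mice only. The first list held 11 genes: kinases, the SR protein importer Tnpo3 and the phosphatase regulator Ppp1r8. None passed for nicotine (highest Srpk3, 0.11 ± 0.14, and lowest Clk1, -0.27 ± 0.13, in all mice). For ethanol in all mice 1 passed, the SR protein kinase Clk3 (0.19 ± 0.05, adjusted p = 0.0365, edgeR). Of 30 SR-related proteins, 1 passed in Water-Ethanol against WW: Srrm3, a neural cofactor for microexons, was higher (0.31 ± 0.06, adjusted p = 0.0450). In NE against WW 2 were lower, Tra2b, an enhancer-binding splicing activator (-0.24 ± 0.04, adjusted p = 0.0372), and Rsrc2 (-0.27 ± 0.04, adjusted p = 0.0372). For ethanol in all mice Srrm3 was higher and Scaf8, Rsrc2 and Bclaf1 were lower.

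Of 26 hnRNP-type binding proteins with other symbols, 1 passed in NE against WW, the poly(C)-binding protein Pcbp4 (0.22 ± 0.04, adjusted p = 0.0403, edgeR), which also passed for ethanol in all mice. For nicotine in all mice Cirbp had the highest value of this list, which was positive. Rbm3 had the lowest, -0.26 ± 0.06, and did not pass (adjusted p = 0.170, edgeR). Of 21 neuronal splicing regulators, Khdrbs1 (Sam68) was lower in NE against WW (-0.25 ± 0.04, adjusted p = 0.0372), and for ethanol in all mice Rbfox2 (0.14 ± 0.03) and Elavl3 (0.08 ± 0.02) were higher and Khdrbs1 was lower (-0.17 ± 0.03). Of 38 core spliceosome genes none passed in any comparison, and their median was -0.03 for ethanol and 0.02 for nicotine.

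Of 16 nonsense-mediated decay genes, the scaffold gene Upf2 was higher in Water-Ethanol against WW (0.18 ± 0.03, adjusted p = 0.0471, edgeR) and Smg5, an effector that recruits decay enzymes, in NE against WW (0.24 ± 0.04, adjusted p = 0.0372). For ethanol in all mice Upf2, Smg5 and the kinase gene Smg1 (0.23 ± 0.06, adjusted p = 0.0295) were higher and 13 did not pass, where 2.94% of all genes were called higher. The medians of the 16 genes were 0.03 for ethanol and 0.02 for nicotine. Several of these calls rest on single mice: leaving out WW replicate 2 or 3, or any Water-Ethanol mouse, left at most 1 gene of all tested past the threshold in Water-Ethanol against WW, and leaving out any mouse but WW replicate 4 left at most 11 in NE against WW, where all mice gave 70 and 48. For nicotine no gene of the 6 lists passed in NW against WW, in NE against Water-Ethanol or in all mice.

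Short motifs that the choice by symbol did not use were counted in the promoters. The shares beside them are of all promoters, not of promoters of genes expressed at a like level. RefSeq gave a promoter (GRCm38.p6) for 29 of the 31 genes. In the 250 bases before the start, 22 of 29 (75.9%) held the letters GGGCGG on either strand, a GC box, against 32.7% of 32851 promoters. The CCAAT box, the letters CCAAT on either strand, was present in 15 of 29 (51.7%) against 33.85%, and TATAAA on either strand in 3 of 29 (10.3%) against 12.4%. TGACGTCA, the cyclic AMP response element, was in none of the 29 and in 1.55% of all promoters. Hnrnpa1 held GGGCGG and CCAAT, Hnrnph1 CCAAT only, and Srsf7 GGGCGG only.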

How the data were processed

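Whole-brain RNA-seq of 16 mice was analysed from the deposited tables. Per the labels, the authors used bcl2fastq 1.8.4, Trimmomatic 0.32, TopHat2 and the Cufflinks tools on mm10 (GRCm38). The authors deposited read counts per gene, not normalized; the counting program and its use of strand are not given in the sources used here, the labels name an unstranded kit and the methods a stranded one, so reads of antisense partners may be mixed. The authors' FPKM values, from the Cufflinks tools, are scaled to transcript length and mapped fragments and keep no depth. Positions and exon coordinates are those of the count table.

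Counts were filtered (filterByExpr), normalized by TMM and tested by edgeR 4.0.16's quasi-likelihood test (R 4.3.3) with Benjamini-Hochberg adjustment over all genes tested, at 0.05. Pairwise comparisons used the mice compared, and those over all mice a single fit of 16. SEs were derived from each log2 fold change and its quasi-likelihood F. WW mice are controls of 3 comparisons, which are therefore not independent. Mice are separate animals by the labels, and p-values measure the spread between them. FPKM was tested as log2(FPKM + 1), or + 0.1, with limma 3.58.1 for genes with a mean of at least 1. Alternatives were DESeq2 1.42.0, the likelihood-ratio test, RLE factors, no filter, one fit of all mice, a GC correction (smooth with 6 degrees of freedom, GC known for 15183 of 15592 genes) and leaving out mice. The tests were checked on simulated counts. Exact permutation tests were two-sided.

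Members, lists and markers were chosen with earlier results of these data known. Every member is counted. Values per mouse are given for Hnrnpa1, members with an adjusted p under 0.05, and in each pairwise comparison up to 3 members with the largest difference among those without overlap; highest and lowest members are named for level, and list genes when called or, for nicotine, at the extremes. Srsf5, Gm10052, Gm5643 and Gm6793 were chosen after their values were seen. Shared sequence was searched in GENCODE vM21 transcripts. Reads were not counted again. Some sequences are not reported here.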

Additional observations from a re-analysis of the deposited data

Results flagged for a closer look

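In each of the 124 groups of 4 mice (31 genes in 4 groups) the highest and lowest mouse were compared with the rest by Dixon's test at 95%, and 6 groups held a mouse apart, where chance gives about 1 in 20. NW replicate 3 was high for Hnrnpa2b1 (11570 normalized counts, the other NW mice at most 10738) and for Hnrnpu (14612, the others at most 13194), and it also had the fewest cerebellar marker reads of the NW mice. The part of that in these values was not tested. Hnrnph3 was high in NW replicate 1 (1457, the others at most 1405), Hnrnpr in NE replicate 4 (3131, the others at most 2913) and Srsf11 in Water-Ethanol replicate 3 (3346, the others at most 2790). Hnrnpu was low in Water-Ethanol replicate 4 (12937, the others at least 13713). None of these genes was past the threshold in edgeR's quasi-likelihood test of any comparison.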

How the results depend on the processing

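No paired analysis was possible because the labels give no numbers that the groups share. The count of members past the threshold depended on the test. For ethanol these counts draw on the values that chose the set and support nothing. For Water-Ethanol against WW it was 1, and 3 with the likelihood-ratio test, 5 with DESeq2, and 0 with limma on log2(FPKM + 1), with limma on log2(FPKM + 0.1), in the fit of all 16 mice and without WW replicates 3 and 4. Of all genes tested in these alternative fits, in the same order, 4.05%, 5.14%, 0%, 0%, 0.180% and 0.129% passed. For NE against WW it was 0, and 2 with the likelihood-ratio test and 6, all lower, with DESeq2, where 2.45% and 4.30% of all genes passed. For ethanol in all mice it was 2, and 6 with the likelihood-ratio test, 6 with DESeq2, 4 with GC correction (Srsf7 and Hnrnpd lower in addition) and 0 without WW replicates 3 and 4. The shares of all genes in these alternative fits were 6.71%, 7.83%, 4.81% and 1.39%. With limma on log2(FPKM + 1) or log2(FPKM + 0.1) it was 3, of which 2 were higher and 1 lower, where 5.675% and 5.66% of all genes passed. For nicotine in all mice it was 0, and 1 (Hnrnpll) with the likelihood-ratio test and with DESeq2, where 0.346% and 0.967% of all genes passed. For NW against WW it was 0, and 1 (Hnrnpll) in the fit of all 16 mice, where 0.718% of all genes passed. Leaving out 1 mouse gave 0 to 4 members for Water-Ethanol against WW, 0 to 3 for NE against WW, 0 to 3 for ethanol in all mice and 0 to 1 for nicotine in all mice; the 4 and the first 3 came without WW replicate 4, the mouse low in cerebellar transcripts, with 797 and 283 genes called. The value of Hnrnpa1 turned sign with FPKM in NW against WW (0.14 in counts, -0.13 with either pseudocount) and in the interaction (-0.42 in counts, 0.038 with either), and for nicotine in all mice on leaving out 1 mouse (-0.15 to 0.010, the latter without NE replicate 2). The cause was not tested. Counts of all genes past the threshold moved likewise: with the likelihood-ratio test, DESeq2 and without WW replicates 3 and 4 they were 620, 606 and 20 for Water-Ethanol against WW (70), 375, 507 and 0 for NE against WW (48) and 1046, 1073 and 219 for ethanol in all mice (702). For NW against WW (0) they were 113, 121 and 0, with 112 in the fit of all 16 mice, and for nicotine in all mice (0) the likelihood-ratio test gave 54 and DESeq2 98. With 126 to 313 reads per mouse, Hnrnpa1 is the member with the least precise counts.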

Other observations

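Srsf10, Hnrnpf and Srsf4 also differed between the tables without sharing exon bases with another row of the count table on the same strand. Their levels from counts were 51.1%, 66.8% and 271% of their FPKM. In Hnrnpf 40.0% and in Srsf10 5.71% of the 150-base windows of the longest coding transcript occurred in transcripts of other genes, and in Srsf4 0%. On the same measure Hnrnpa1 had 37.6%. Windows of this kind were found in 11 of the 31 genes and in none of the other 20.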
